A study of Danio rerio with 6 samples.

Results

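The SLC25 family is the set of carriers that move metabolites across the inner mitochondrial membrane. Its members were taken as all rows of the count table whose gene name, with case ignored, began with slc25a, leaving out slc25a37 and slc25a38a. This gave 57 members of 32105 genes in the table. RNA was sequenced from zebrafish (Danio rerio) at 5 days post fertilization (dpf), from 3 libraries of homozygous IT325 mutants and 3 libraries of their wild-type siblings. IT325 (allele t24980) is a line found after chemical mutagenesis that carries a nonsense mutation in ikzf1, the gene of the haematopoietic transcription factor Ikaros, and its protein ends before the C-terminal zinc fingers. The wild-type siblings came from the same line without the allele, and the labels give a mixture of wild-type strains for both groups. Each group is labelled whole body, and the study's methods give 3 individual fish per genotype.

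Mitochondrial carriers share a fold of repeated modules around a central binding site, and most of them exchange a substrate of the cytosol for one of the matrix. They supply oxidative phosphorylation with ADP and phosphate, link amino acid and citric acid cycle metabolism across the membrane, and bring in cofactors that the matrix cannot make. Several of them serve haem synthesis, which begins and ends in mitochondria: slc25a38 proteins carry glycine, the mitoferrins slc25a37 and slc25a28 carry iron, and slc25a39 carries glutathione. Zebrafish keep a pair of copies of many of these genes, named a and b, from an ancient genome duplication in fish. Substrates are known mainly from human, mouse and yeast carriers, and the members were grouped by the substrate of the carrier with the same number.

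The libraries held 37.4 to 53.3 megacounts. Levels are given as CPM, counts per megacount of the library total after scaling by TMM (the trimmed mean of M values), whose factors were 0.919 to 0.997 in mutants and 1.022 to 1.049 in wild type. A level cannot be compared between genes of different length, and transcript lengths were not used here. A gene was called higher or lower where edgeR's quasi-likelihood test gave an adjusted p under 0.05, and SE is the standard error of a log2 fold change of mutants over wild type. In mutants ikzf1 (ENSDARG00000013539) was at 1167, 1766 and 1149 CPM, against 276, 306.3 and 299.7 CPM in wild type, a log2 fold change of 2.21 (SE 0.174 and edgeR adjusted p 1.17e-04). The mutated base cannot be read from counts per gene. Defining markers of skeletal muscle went against the label whole body. The 10 muscle genes matched summed to 6.04 to 8.30 CPM in mutants, against 5.19 to 8.11 CPM in wild type, 8 of them were under 1 CPM on average and tnnt3a had no count in any library. The 6 neural genes summed to 0.637 to 8.58 CPM in mutants, against 1.01 to 16.8 CPM in wild type, and 5 of them were under 1 CPM on average. The highest neural sums were mostly mbpa, at 7.90 CPM in mutant replicate 3 and 15.7 CPM in wild type replicate 3. The 8 liver genes summed to 2.94 to 34.5 CPM in mutants, against 7.59 to 28.7 CPM in wild type. The liver sum stood apart in mutant replicate 1, at 34.5 CPM, against 3.08 and 2.94 CPM in the other mutants, and without that library 4 of the 8 liver genes (apoa2, tfa, apoa1b and serpina1) were called lower in mutants, where none was called with it. Blood lineage genes took far more counts. The 14 erythroid genes summed to 24300 to 36360 CPM in mutants, against 6792 to 10670 CPM in wild type. All 14 were called higher in mutants, while all 9 T cell genes were lower. The T cell genes summed to 200.9 to 275.3 CPM in mutants, against 887.8 to 1010 CPM in wild type. Most of that sum was ccr9a, which averaged 189.1 CPM in mutants, against 742 CPM in wild type. The study lists ccr9a for B cells as well as T cells. Of 7 neutrophil genes 4 were higher and 1 lower, with sums of 31260 to 33070 CPM in mutants, against 19630 to 20350 CPM in wild type. Of 4 macrophage genes 2 were higher (marco and csf1ra) and 2 lower (cd74a and cd74b). The study lists cd74a and cd74b for B cells as well as macrophages. Among these blood markers lck, zap70, mmp9 and mmp13a lost their calls in 2 to 5 of the 6 fits that each left out 1 library, these and klf17 without the filter on low counts, and mmp9 with the replicate block.

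Most SLC25 members did not pass the test, and most of those that did differed by less than 1 on the log2 scale. Of the 57 members, 45 had enough counts to be tested, 7 were higher and 4 lower in mutants. That is 15.6% higher and 8.89% lower, or 24.4% called, and of all 17828 genes tested 17.5% were called higher, 16.4% lower and 33.9% in either direction. Counts within a substrate group are read beside these shares, and groups of so few genes cannot be told from them. Only 3 members, slc25a55b, slc25a25b and slc25a38b, were called with a log2 fold change of at least 1 in size, where 15.0% of all genes were. Slc25a38b passed that size narrowly, at 1.004, and slc25a39 missed it at 0.98. With upper-quartile scaling slc25a38b was at 0.97 and without scaling factors at 0.90. The median log2 fold change of the members was -0.03, with -0.01 for all genes. Their median change in size was 0.26, and 0.36 for all genes. An unadjusted p under 0.05 in edgeR was found for 17 of the 45 members tested. The share of all genes at that level is not given here, and it cannot be below the 33.9% called by adjusted p. By groups that did not overlap, 9 members had every mutant library above every wild-type library and 9 had every mutant library below, and these arrangements held for 25.8% and 24.7% of all genes. Without scaling factors, which moved the median of all genes to -0.11 and that of the members to -0.13, the called members were 6 higher and 8 lower. Of all genes 6171 were called in that fit. Their split by direction is not given here, so the member counts cannot be read apart from the general shift. RNA came from mixed cells, so more cells of a type and more RNA per cell cannot be told apart.

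**Figure D1:**
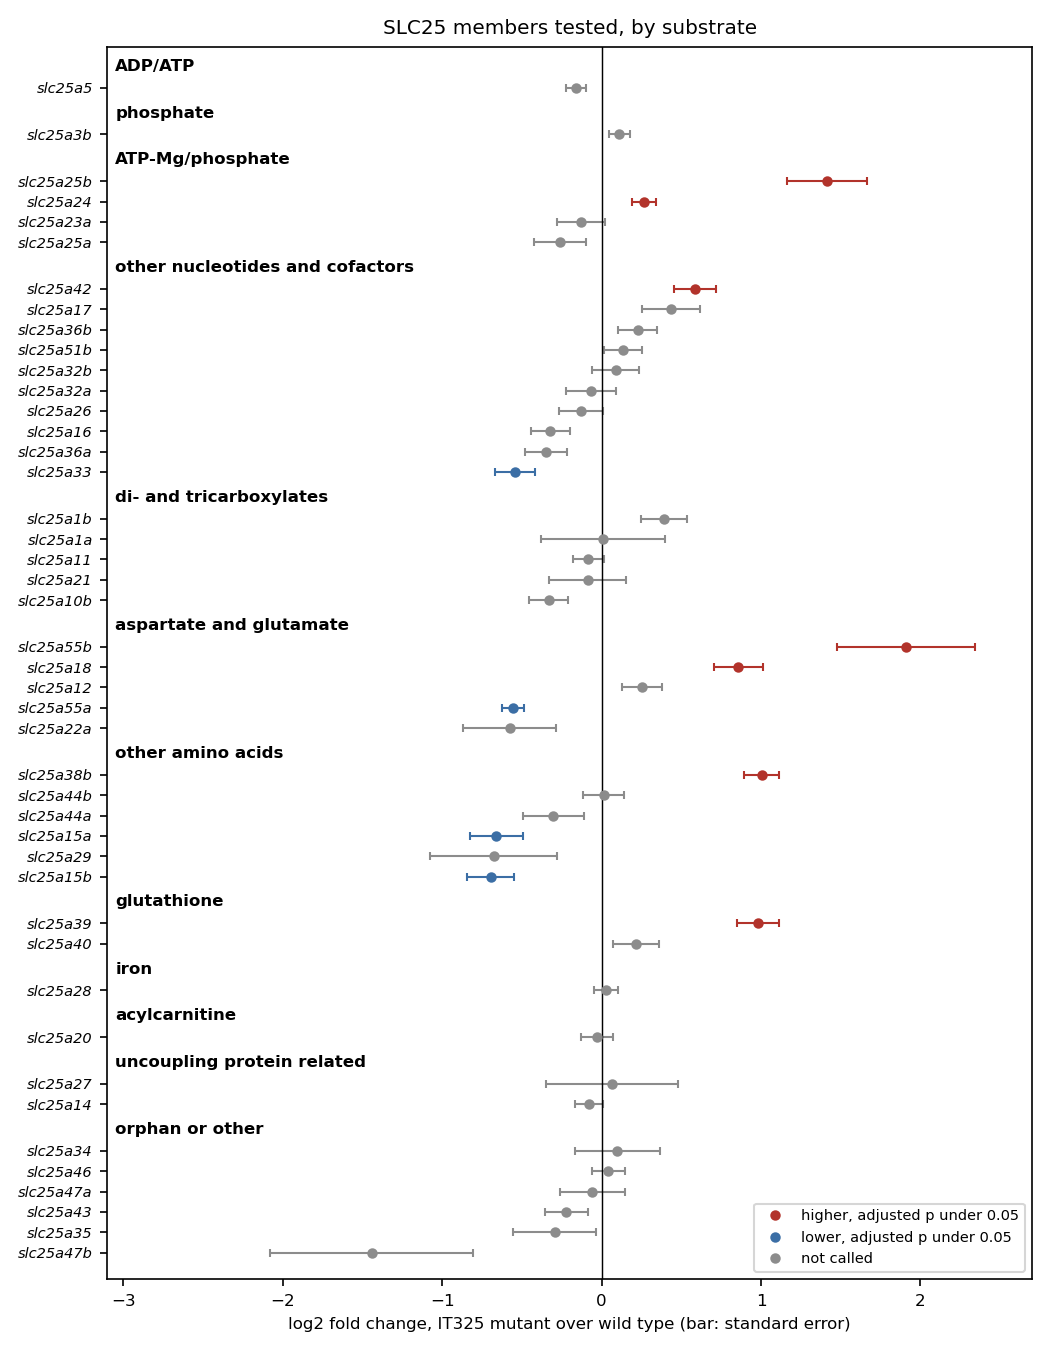
Log2 fold change in IT325 mutants over wild type (x axis) for 44 of the 45 members tested, grouped by substrate (y axis), with bars of 1 standard error. The 7 members called higher are red, the 4 called lower are blue and 33 of the 34 not called are grey. Only slc25a55b, slc25a25b and slc25a38b were called with a change of at least 1.

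The adenine nucleotide and phosphate carriers of oxidative phosphorylation took most of the counts of the family. The members together took 0.494%, 0.514% and 0.501% of all counts in mutants, against 0.622%, 0.579% and 0.590% in wild type. On the TMM scale their sum was 5378, 5248 and 5028 CPM in mutants, against 6088, 5521 and 5684 CPM in wild type, and every mutant library was lower on both scales. Without slc25a5 the sum was 1780, 1754 and 1625 CPM in mutants and 1944, 1727 and 1892 CPM in wild type, with overlap on the TMM scale, and 0.164%, 0.172% and 0.162% of all counts in mutants, against 0.199%, 0.181% and 0.197% in wild type, without overlap. Most of the sum over all members was slc25a5 (ENSDARG00000092553), an ADP/ATP carrier that brings ADP into the matrix for ATP synthase and sends ATP out. It took 66.6% to 67.7% of the members' counts in mutants and 66.7% to 68.7% in wild type. With slc25a3b, slc25a55a and slc25a25a added, the 4 genes took 87.7% to 87.9% of the members' counts in mutants and 88.6% to 89.6% in wild type.

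Slc25a5 was at 3598, 3494 and 3403 CPM in mutants, against 4144, 3794 and 3792 CPM in wild type. Every mutant library lay below every wild-type library, and the difference was not called. Its log2 fold change was -0.16 (SE 0.0615 and edgeR adjusted p 0.075), and it passed the threshold with upper-quartile scaling, at -0.19, and without scaling factors, at -0.26. The other 2 ADP/ATP carriers, slc25a4 and slc25a6, had at most 3 counts in any library. The genes of these carriers are similar in sequence, and reads shared between them can be lost or given to the wrong gene, so their values are uncertain. The phosphate carrier slc25a3b (ENSDARG00000025566), which brings in phosphate with a proton, was at 562, 572 and 521 CPM in mutants and 523, 497 and 514 CPM in wild type. The groups overlapped, with a log2 fold change of 0.11 (edgeR adjusted p 0.235). Its copy slc25a3a had 22 of the 141897 counts of the pair.

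Among the calcium-regulated carriers that exchange ATP-Mg for phosphate, 2 of 4 tested members rose and neither of the others passed. Of all genes tested 17.5% were called higher, and a count over so few genes cannot be told from that share. Slc25a25b (ENSDARG00000035468) was at 9.96, 8.05 and 9.33 CPM in mutants, against 3.17, 2.29 and 4.75 CPM in wild type. The lowest mutant library was well above the highest wild-type library. Its means were 9.11 ± 0.978 CPM in mutants, against 3.40 ± 1.25 CPM in wild type (SD over 3 libraries each), a 2.67-fold difference with a log2 fold change of 1.41 (SE 0.253 and edgeR adjusted p 0.00321). Fits without 1 library gave 1.20 to 1.74. Slc25a24 (ENSDARG00000008568) was at 34.5, 36.1 and 35.8 CPM in mutants, against 28.7, 30.7 and 29.1 CPM in wild type. The groups did not overlap, but this was the smallest of the called changes, 1.20-fold, with a log2 fold change of 0.27 (SE 0.0758 and edgeR adjusted p 0.0264). The call was lost without mutant replicate 2 (0.26) or 3 (0.27), without wild type replicate 1 (0.24) or 3 (0.25), without scaling factors (0.16) and with the replicate number as a block (0.27, edgeR adjusted p 0.0537), with adjusted p of 0.0134 to 0.188 over all alternatives. Slc25a25a (ENSDARG00000010572) had the most counts of this group, at 258.5, 223 and 189 CPM in mutants and 303, 210.5 and 289 CPM in wild type. The groups overlapped and its log2 fold change was -0.26 (edgeR adjusted p 0.258). Slc25a23a had a log2 fold change of -0.13 and was not called. Slc25a23b had 35 counts in all and slc25a24l none, and neither was tested.

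Carriers of aspartate and glutamate held both the largest rise and the called fall with the most counts, in a pair of copies of 1 gene. RefSeq gives slc25a22, a mitochondrial glutamate carrier in humans, as another name of slc25a55a, and slc25a55b was placed with it by its number. Slc25a55b (ENSDARG00000013749) had 68, 47 and 45 counts in mutants, against 15, 8 and 21 counts in wild type. This was 1.40, 1.18 and 1.06 CPM in mutants, against 0.393, 0.189 and 0.380 CPM in wild type, where the floor of 3 counts, the limit that a count of 0 allows, lay at 0.0542 to 0.0785 CPM. The groups did not overlap. Its log2 fold change was 1.91 (SE 0.432 and edgeR adjusted p 0.00982), with 1.64 to 2.06 in fits without 1 library. Slc25a55a (ENSDARG00000020893) was at 309.9, 311 and 305 CPM in mutants, against 484, 434 and 443 CPM in wild type. All mutant libraries were below wild type. The means were 308.8 ± 3.22 CPM in mutants, against 453 ± 26.6 CPM in wild type (SD over 3 libraries each), and wild type was 1.47-fold higher. The log2 fold change was -0.55 (SE 0.0686 and edgeR adjusted p 4.55e-04), with -0.58 to -0.51 in fits without 1 library.

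Slc25a18 (ENSDARG00000070717), a glutamate carrier in humans, was at 20.4, 19.0 and 16.9 CPM in mutants, against 10.5, 8.27 and 12.3 CPM in wild type. All mutant libraries were above wild type, and mutants were 1.81-fold higher on average, with a log2 fold change of 0.86 (SE 0.153 and edgeR adjusted p 0.00308). The aspartate/glutamate carrier slc25a12, part of the malate-aspartate shuttle, had a log2 fold change of 0.26 and overlapping groups (edgeR adjusted p 0.149). The glutamate carrier slc25a22a had -0.58 (SE 0.292 and edgeR adjusted p 0.163). Its mutant libraries were at 2.90, 1.88 and 1.57 CPM and wild type at 3.51, 2.38 and 3.60 CPM, with overlap. The second aspartate/glutamate carrier, slc25a13, had at most 4 counts in a library and slc25a22b none.

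**Figure D2:**
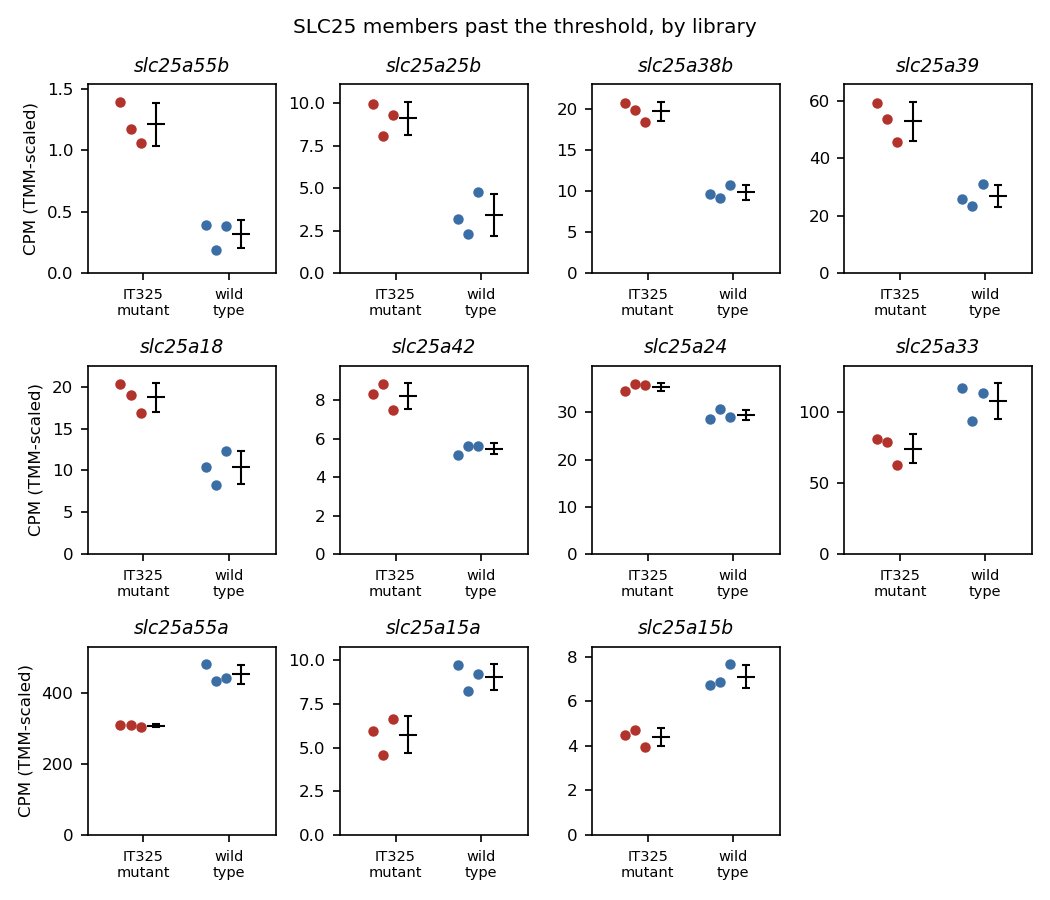
CPM after TMM scaling (y axis, from 0, a scale for each gene) in 3 IT325 mutant (red, left) and 3 wild-type (blue, right) libraries for the 11 members called, with the mean and SD in black. Groups overlapped in none of the 11, which were drawn because they were called, so this lack of overlap is no separate result. Of all genes tested, called or not, 25.8% lay above and 24.7% below without overlap. The smallest fold change was that of slc25a24, at 34.5 to 36.1 CPM in mutants, against 28.7 to 30.7 CPM in wild type.

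Among other amino acid carriers 1 of 6 tested members was higher and 2 lower. Of all genes tested 17.5% were called higher and 16.4% lower, and counts over so few genes cannot be told from those shares. Slc25a38b (ENSDARG00000074533) is a copy of the carrier that brings glycine into the matrix for the first step of haem synthesis, a role known from human, yeast and zebrafish. It was at 20.8, 19.9 and 18.4 CPM in mutants, against 9.58, 9.10 and 10.77 CPM in wild type. No mutant library reached down to wild type. The means were 19.7 ± 1.18 CPM in mutants, against 9.82 ± 0.860 CPM in wild type (SD over 3 libraries each), with a log2 fold change of 1.004 (SE 0.108 and edgeR adjusted p 2.14e-04), and of 0.95 to 1.08 in fits without 1 library. Both ornithine carriers fell. Slc25a15 proteins import ornithine in exchange for citrulline, a step of the urea cycle in mammals. Slc25a15b (ENSDARG00000062271) was at 4.48, 4.74 and 3.95 CPM in mutants, against 6.75, 6.86 and 7.70 CPM in wild type. Slc25a15a (ENSDARG00000063539) was at 5.94, 4.59 and 6.65 CPM in mutants, against 9.71, 8.25 and 9.20 CPM in wild type. Neither gene's groups overlapped. The log2 fold changes were -0.70 for slc25a15b (SE 0.147 and edgeR adjusted p 0.00701) and -0.66 for slc25a15a (SE 0.164 and edgeR adjusted p 0.0147). The call of slc25a15a was lost without wild type replicate 1, at -0.61 (edgeR adjusted p 0.0541, and 0.00355 to 0.0541 over all alternatives).

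The remaining amino acid carriers did not pass. Slc25a44 proteins carry branched-chain amino acids in mammals, and slc25a44a and slc25a44b had log2 fold changes of -0.30 and 0.01. The sign of slc25a44b turned with upper-quartile scaling and without scaling factors. Slc25a29, a carrier of basic amino acids in humans, had 22, 21 and 19 counts in mutants and 23, 39 and 42 counts in wild type, every mutant library below, and its log2 fold change was -0.68 (SE 0.401 and edgeR adjusted p 0.226). In the GRCz12tu annotation slc25a29 overlaps slc25a47a, and counting at default settings does not use strand, so their reads may be lost or mixed. The same holds for 4 called members, for slc25a15a, which overlaps foxo1a there, for slc25a18 with atp6v1e1a, for slc25a38b with LOC141386178 and for slc25a42 with mir7148. Among members tested and not called it also holds for slc25a3b, slc25a10b, slc25a22a, slc25a23a, slc25a25a, slc25a26, slc25a36a, slc25a43, slc25a44b and slc25a47b.

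Of the 2 glutathione carriers slc25a39 rose and slc25a40 did not pass. Slc25a39 (ENSDARG00000007449), which brings glutathione into mitochondria of human and mouse cells, was at 59.3, 53.8 and 45.8 CPM in mutants, against 26.0, 23.5 and 31.1 CPM in wild type. The lowest mutant library was still above the highest wild-type library. Means were 53.0 ± 6.78 CPM in mutants, against 26.8 ± 3.91 CPM in wild type (SD over 3 libraries each), a 1.97-fold difference, with a log2 fold change of 0.98 (SE 0.131 and edgeR adjusted p 7.23e-04), and of 0.89 to 1.0996 in fits without 1 library. Slc25a40 (ENSDARG00000015856), which takes the same substrate in human cells, was at 11.7, 9.88 and 8.35 CPM in mutants and 8.95, 8.58 and 8.24 CPM in wild type. These overlapped, and the log2 fold change was 0.22 (SE 0.144 and edgeR adjusted p 0.284). The difference between the changes of slc25a39 and slc25a40 was not tested.

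The iron carrier slc25a28 (ENSDARG00000052994), mitoferrin 2, which mammals express in many tissues, was not called. It was at 69.2, 69.75 and 77.2 CPM in mutants and 73.8, 69.4 and 68.7 CPM in wild type, with a log2 fold change of 0.03 (SE 0.0744 and edgeR adjusted p 0.792). The sign turned to -0.07 without scaling factors. The rule left out its relative slc25a37 (mitoferrin 1), the iron carrier of red cell precursors. It was at 30.7, 27.9 and 18.9 CPM in mutants, against 10.4, 10.4 and 12.7 CPM in wild type, with a log2 fold change of 1.20 (SE 0.185 and edgeR adjusted p 0.00178). The other row left out, slc25a38a, had 8, 3 and 5 counts in mutants and 3, 7 and 3 counts in wild type and was not tested.

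The rises of the 7 members called higher stood beside the rise of all 14 erythroid markers. Summed erythroid CPM was 36360, 27550 and 24300 in mutants and 8249, 6792 and 10670 in wild type. Most of it was hbaa1, at 22280, 15640 and 14380 CPM in mutants and 4800, 3964 and 6543 CPM in wild type. An order of libraries was looked at after the values had been seen. Of the 14 erythroid genes 11 ranked the libraries as their sum did in both groups, and alas2, tfr1a and epor did not. These genes make up the sum, so their order is partly built into it. In both groups slc25a38b, slc25a39 and slc25a18 ranked the libraries as the erythroid sum did, highest in mutant replicate 1 and wild type replicate 3. So did slc25a37 and 3 members not called higher, slc25a12, slc25a22a and slc25a43, which makes 6 of 45 members (13.3%), with 5.31% of all genes tested in that order. The log2 fold changes of slc25a22a and slc25a43 were negative, at -0.58 and -0.22. The other 4 members called higher, slc25a25b, slc25a55b, slc25a24 and slc25a42, were not in that order. Mutant replicate 1 and wild type replicate 3 also had the largest totals of their groups, 52954765 and 53279243 counts. With 3 libraries a group this order is a description, and the 13.3% was not tested against the 5.31%. Most of the erythroid sum was hbaa1, and members with negative changes were in its order too. So this order cannot tell whether a gene followed red cell content. The part of red cell number in the rises of the 7 members was not tested. The falls of slc25a55a, slc25a33, slc25a15a and slc25a15b stood beside the fall of all 9 T cell markers. From the macrophage and neutrophil lists cd74a, cd74b and mmp13a fell too. Summed T cell CPM was 237.7, 275.3 and 200.9 in mutants and 931.4, 887.8 and 1010 in wild type. None of these falling members ranked the libraries as the T cell sum did in both groups. Of the 9 T cell markers only ccr9a did, and it made up most of that sum. That order therefore cannot tell whether a gene followed T cell content, and the share of all genes in it is not given here. The part of T cell number or of other cells in their falls was not tested.

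Of 11 tested carriers of other nucleotides and cofactors, slc25a42 rose and slc25a33 fell, where 33.9% of all genes tested were called in either direction. Slc25a42 (ENSDARG00000099368) exchanges coenzyme A for adenine nucleotides in humans. It was at 8.34, 8.85 and 7.50 CPM in mutants, against 5.155, 5.63 and 5.64 CPM in wild type. The groups did not overlap, and the mutants were 1.502-fold higher, with a log2 fold change of 0.59 (SE 0.133 and edgeR adjusted p 0.00972). Slc25a33 (ENSDARG00000039931) brings pyrimidine nucleotides into mitochondria in human and mouse cells. It was at 81.3, 78.9 and 62.5 CPM in mutants, against 117, 93.6 and 113 CPM in wild type. All mutant libraries were below wild type, which was 1.46-fold higher, with a log2 fold change of -0.54 (SE 0.123 and edgeR adjusted p 0.0104).

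The other 9 tested cofactor carriers lay between -0.35 and 0.44 on the log2 scale. The highest was slc25a17, the family's peroxisomal carrier of cofactors in humans, at 0.44 (SE 0.182 and edgeR adjusted p 0.0974). The NAD carrier slc25a51b was at 0.13 and the S-adenosylmethionine carrier slc25a26 at -0.13. Both copies of the folate carrier slc25a32 were within 0.1 of no change, at -0.07 for slc25a32a and 0.09 for slc25a32b. Slc25a16, related to coenzyme A uptake in yeast, was at -0.32 (edgeR adjusted p 0.0702), and every mutant library lay below wild type. It passed without mutant replicate 3, at -0.41, and without scaling factors, at -0.42. Slc25a36 proteins, pyrimidine nucleotide carriers in humans, differed in sign, with slc25a36a at -0.35 (edgeR adjusted p 0.0759) and slc25a36b at 0.23 (edgeR adjusted p 0.184). Slc25a36a passed without wild type replicate 3, at -0.43, and without scaling factors, at -0.45.

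None of the 5 tested carriers of di- and tricarboxylates passed in edgeR or in DESeq2, and 2 had an unadjusted p under 0.05 in edgeR. Of all genes tested 33.9% were called in edgeR in either direction. Carriers of di- and tricarboxylates link the citric acid cycle with the cytosol. The oxoglutarate/malate carrier slc25a11 had the most counts among them, at 24.7, 23.3 and 24.0 CPM in mutants and 23.0, 25.1 and 28.2 CPM in wild type. The groups overlapped, with a log2 fold change of -0.08 (SE 0.0978 and edgeR adjusted p 0.541). The citrate carrier copies slc25a1b and slc25a1a had 0.39 (SE 0.142 and edgeR adjusted p 0.064) and 0.01 (SE 0.390). All mutant libraries of slc25a1b were above wild type, at 6.51, 6.89 and 6.11 CPM in mutants and 4.74, 5.42 and 4.72 CPM in wild type. The dicarboxylate carrier slc25a10b had -0.33 (SE 0.124 and edgeR adjusted p 0.069), with every mutant library below wild type, and it passed without scaling factors, at -0.43. Slc25a21, a carrier of oxodicarboxylates, had -0.09.

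The acylcarnitine carrier slc25a20, which brings fatty acids in for oxidation, was at 24.5, 24.5 and 26.8 CPM in mutants and 26.0, 22.9 and 28.4 CPM in wild type, with a log2 fold change of -0.03 (SE 0.102 and edgeR adjusted p 0.846). The relatives of uncoupling proteins did not pass either. Slc25a14 was at 27.0, 24.7 and 28.6 CPM in mutants and 28.7, 28.8 and 27.4 CPM in wild type, with a log2 fold change of -0.08 (SE 0.087 and edgeR adjusted p 0.522). Slc25a27 had 0.07 with an SE of 0.411. Among 6 tested members with no substrate or another role, slc25a43 had the most counts, at 28.1, 24.1 and 19.8 CPM in mutants and 28.3, 25.4 and 30.5 CPM in wild type, with a log2 fold change of -0.22 (SE 0.135 and edgeR adjusted p 0.238). Slc25a46, an outer membrane protein in humans tied to mitochondrial fission and cristae, had 0.04. Slc25a34, slc25a35 and slc25a47a had 0.10, -0.29 and -0.06. The row taken as slc25a35 is ENSDARG00000102783, and the study elsewhere uses that name for another ID, so its name is uncertain. Slc25a47b had 7, 2 and 9 counts in mutants and 14, 12 and 26 counts in wild type, and its log2 fold change of -1.44, the largest in size among members not called, had an SE of 0.638 (edgeR adjusted p 0.115).

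**Figure D3:**
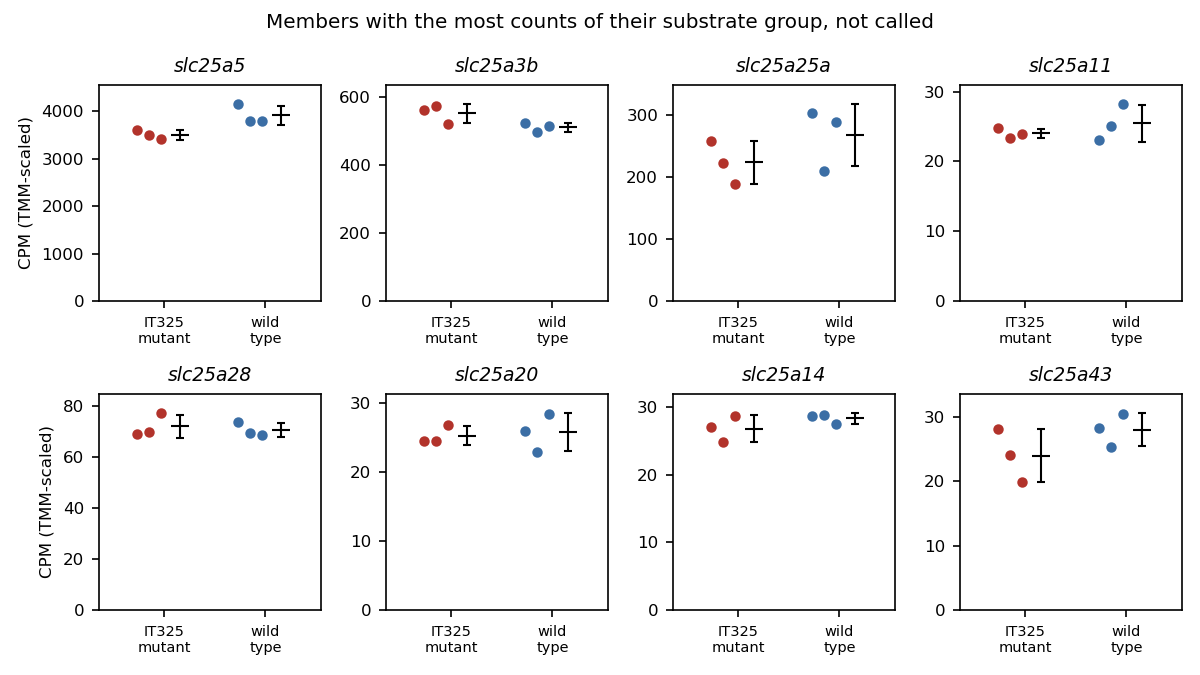
CPM after TMM scaling (y axis, from 0, a scale for each gene) in 3 IT325 mutant (red, left) and 3 wild-type (blue, right) libraries for the 8 members that had the most counts of their substrate group and were not called, with the mean and SD in black. Groups overlapped in all but slc25a5, at 3403 to 3598 CPM in mutants, against 3792 to 4144 CPM in wild type.

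The 34 members tested and not called had log2 fold changes of -1.44 to 0.44, 15 above and 19 below 0. Of these, 24 were within 0.3 of no change. Groups did not overlap in 7, slc25a1b and slc25a36b above wild type and slc25a5, slc25a10b, slc25a16, slc25a29 and slc25a47b below. Of all genes tested, called or not, 25.8% lay above and 24.7% below without overlap. The share among genes not called is not given here, so the 7 cannot be read as a result about the family. Their median SE was 0.143, and a test that misses the threshold does not show that levels were equal. The median coefficient of variation between replicates was 11.5% in mutants and 10.6% in wild type over the members tested. Of the members tested, 42 averaged at least 1 CPM in either group, 22 at least 10 CPM and 5 at least 100 CPM. The 12 members not tested had at most 11 counts in a library. Those not yet named were slc25a10a, slc25a29l, slc25a48, slc25a51a and a gene listed as SLC25A1 (ENSDARG00000080000) whose zebrafish name was not resolved.

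Many family numbers had 2 copies, and the balance of copies was compared within each library, where scaling cancels. In 8 pairs both copies were tested. Slc25a25b took 3.71%, 3.48% and 4.70% of the counts of its pair with slc25a25a in mutants, against 1.03%, 1.075% and 1.62% in wild type. Slc25a55b took 0.449%, 0.377% and 0.345% of its pair with slc25a55a in mutants, against 0.0811%, 0.0434% and 0.0857% in wild type. The minor copy thus took a larger share in every mutant library in both pairs, and the log2 ratio of copies was higher in mutants by 1.73 for slc25a25b over slc25a25a and by 2.54 for slc25a55b over slc25a55a. Slc25a36b took 62.8%, 51.5% and 55.2% of its pair in mutants, against 41.8%, 46.7% and 51.4% in wild type. Slc25a44b took 65.9%, 63.9% and 60.7% in mutants, against 59.7%, 59.5% and 55.9% in wild type. These 4 of 8 pairs had no overlap, and among 354 pairs of other tested genes whose names differ only in a final a or b 53.7% had none. Each of the 4 had an exact two-sided permutation p of 0.1, the smallest that 3 against 3 libraries allow, and 0.2 adjusted over the 8 pairs, so none could reach 0.05. The other 4 pairs, of slc25a1, slc25a15, slc25a32 and slc25a47, overlapped, with exact permutation p of 0.2 to 1.0. Both copies of slc25a15 fell, and the log2 ratio of slc25a15b over slc25a15a differed by -0.02.

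**Figure D4:**
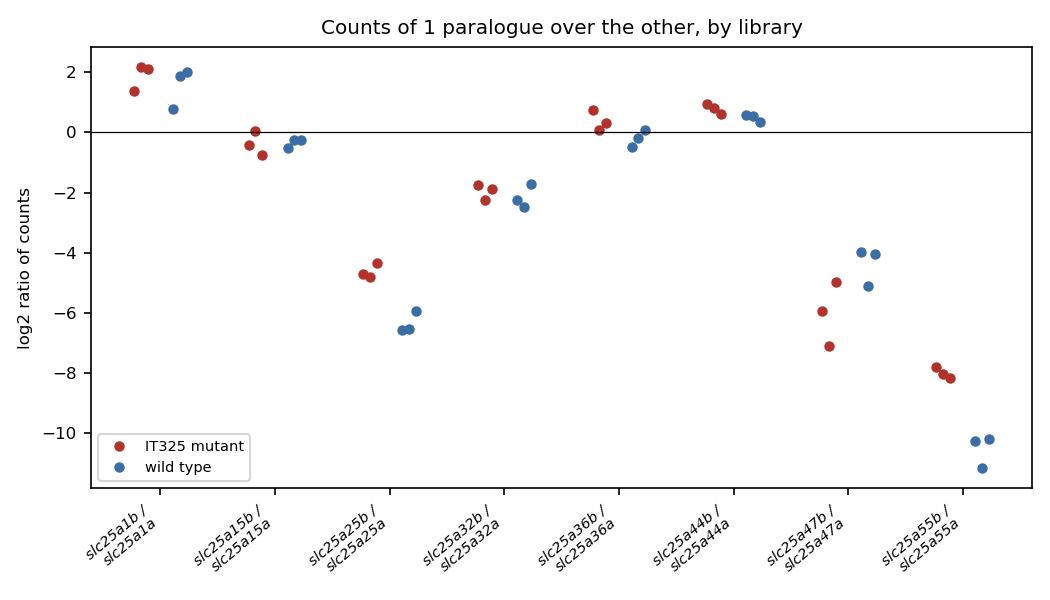
Log2 ratio of the counts of 1 copy over the other (y axis) in each library for the 8 pairs with both copies tested (x axis), with IT325 mutants in red on the left and wild type in blue on the right of each pair. The pairs of slc25a25 and slc25a55 lie farthest apart between the groups without overlap, by 1.73 and 2.54.

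In other numbers 1 copy held nearly all counts. Slc25a22a had 717 counts and slc25a22b none, slc25a24 had 8644 and slc25a24l none, and slc25a10a had 8 of the 2308 counts of its pair. Slc25a51a had 30 of 6769 counts, slc25a23b 35 of 2260 and slc25a29l 5 of 171.

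Other genes of mitochondrial transport were set beside the family. Of 4 carriers of the family with other names, 1 passed, where 33.9% of all genes tested were called in either direction. Ucp3, related to the uncoupling proteins that let protons back into the matrix, was at 33.9, 30.0 and 23.3 CPM in mutants, against 10.4, 7.07 and 12.3 CPM in wild type, with a log2 fold change of 1.54 (SE 0.221 and edgeR adjusted p 0.00159). Ucp2 averaged 259.6 CPM in mutants, against 262 CPM in wild type, and mtch2, an outer membrane insertase in humans, 55.5 CPM in mutants, against 51.6 CPM in wild type, with log2 fold changes of -0.01 and 0.10. Ucp1 had -1.68 (edgeR adjusted p 0.068), and it passed without wild type replicate 3, without scaling factors, with DESeq2 and with the replicate block.

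Of the machinery that brings carriers to the inner membrane, 1 of 15 genes tested was called, and it was lower, with a list median log2 fold change of -0.04. Of all genes tested 33.9% were called in either direction, and the difference from that share was not tested. The receptor subunits tomm20b and tomm70a and the pore tomm40 had the most counts, with log2 fold changes of 0.09, 0.08 and -0.16. The gene called was timm10, a chaperone of the intermembrane space that escorts carriers, named here after its values were seen. It averaged 6.69 CPM in mutants, against 9.41 CPM in wild type, with a log2 fold change of -0.49 (edgeR adjusted p 0.0328). The call was lost in 5 of the 6 fits without 1 library, all but that without mutant replicate 2, and the change ranged from -0.57 to -0.36 over all 6.

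Of 16 other mitochondrial membrane transporters tested, 3 were higher and 3 lower, with a median of 0.01. Of all genes tested 17.5% were called higher and 16.4% lower, so these counts are not read as a result about the list. The channel vdac2 of the outer membrane had the most counts and averaged 595 CPM in mutants, against 535 CPM in wild type, with a log2 fold change of 0.15 (edgeR adjusted p 0.137). Abcb10, needed for haem synthesis in mouse red cell precursors, averaged 94.5 CPM in mutants, against 58.9 CPM in wild type, with a log2 fold change of 0.68 (edgeR adjusted p 2.37e-04). Vdac3 averaged 89.6 CPM in mutants, against 47.3 CPM in wild type, with a log2 fold change of 0.92 (edgeR adjusted p 0.00813). The sideroflexins sfxn4, sfxn5a and sfxn5b, named after their values were seen, changed by -0.54, -0.60 and -1.64, with edgeR adjusted p of 0.0379, 0.022 and 0.00528. Sfxn4 lost its call in all fits without 1 library but that without wild type replicate 1, and sfxn5a without mutant replicate 1 or 2 and without wild type replicate 1 or 2. Both lost their calls with the replicate number as a block, and sfxn4 also without the filter on low counts.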

How the data were processed

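RNA came from 3 IT325 mutants and 3 wild-type siblings, and per the labels libraries were stranded and poly-A selected. The authors aligned paired-end reads with STAR 2.5.2b-1 to an Ensembl annotation and counted them per gene with featureCounts 1.6.0.1 at default settings, which do not use strand, and the deposited values are raw counts. A separate list gave symbols for 26269 of 32105 genes. Of the 57 members, 16 were named by symbol and 40 by shared neighbours in the RefSeq annotation GRCz12tu (at least 4 in common among 8 on either side in the table and 15 in the annotation), a build other than that of the counts, used for names and gene order only. Of 106 entries in the other lists 96 were matched. No sequence of the members was used here, and 2 genes that were tested and counted are not reported by name or value.

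Genes were tested in edgeR 4.0.16 (R 4.3.3) with filterByExpr at a minimum count of 10, TMM factors, robust quasi-likelihood fits without a covariate, and Benjamini-Hochberg adjustment over 17828 genes at 0.05, two-sided. Log2 fold changes set mutants over wild type, with a prior count of 0.125, and standard errors come from the fold change and its F. Floors of 3 counts cover counting error only, at about 95% confidence. Values per library are given for members called with a change of at least 1 and for those with the most counts of each substrate group. Of the other lists at most the 3 genes with the most counts were named by rule, and values per library of the other members were added after their values were seen. Members and lists were chosen with earlier results of these data known. Alternatives were other scalings, filters, DESeq2 1.42.0, a replicate block, an adjusted p under 0.01 and leaving out each library. The steps were tested on simulated data. No batch is given.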

Additional observations from a re-analysis of the deposited data

How the results depend on the processing

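The 7 members called higher ranged from 6 to 7 over all alternatives, fits without 1 library included. The 4 called lower were 8 without scaling factors and 2 at an adjusted p under 0.01, a stricter criterion by construction, and 3 to 5 otherwise. Over all genes, 6040 were called, 3419 at the stricter criterion, and each fit without 1 library called 4588 to 5978. Of the 11 called members 9 kept their calls in all 14 refits, the others being slc25a24 and slc25a15a, and 4 members not called passed in some (slc25a5, slc25a10b, slc25a16 and slc25a36a). With the replicate number as a block, 5370 genes were called, with 6 members higher and 4 lower, and slc25a24 lost its call. Libraries of the same number deviated together at correlations of 0.0559, 0.122 and 0.0939, and those of different numbers at -0.16 to 0.0643. The values of 0.122 and 0.0939 were the highest of these. The main fit did not take the numbers to pair the samples, and these correlations do not settle whether they do. Directions turned only in members close to 0 and not called. Without scaling factors, which shifted all genes, the log2 fold change was -0.10 for slc25a1a, -0.037 for slc25a27, -0.072 for slc25a28, -0.014 for slc25a32b, -0.0040 for slc25a34, -0.088 for slc25a44b and -0.061 for slc25a46. Upper-quartile scaling gave -0.023 for slc25a1a, -0.0002 for slc25a28 and -0.016 for slc25a44b, and TMM without the 50 most abundant genes gave -0.0012 for slc25a1a. Without 1 library, ranges that crossed 0 were -0.29 to 0.45 for slc25a1a, -0.11 to 0.047 for slc25a20, -0.12 to 0.45 for slc25a27, -0.016 to 0.064 for slc25a28, -0.24 to 0.058 for slc25a32a, -0.034 to 0.21 for slc25a32b, -0.0056 to 0.19 for slc25a34, -0.048 to 0.094 for slc25a44b and -0.23 to 0.13 for slc25a47a. The cause was not tested. Members with few counts, such as slc25a55b and slc25a47b, had the largest errors.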
